A study of Mus musculus with 10 samples.

Results

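The genes described here build the sugar precursor of N-linked protein glycosylation and transfer it to protein. They are 34 of the 25050 genes in the deposited table, found by gene symbol: 4 that supply dolichol, 5 that activate mannose, 5 that make or deliver dolichol-linked sugars, 6 that assemble the precursor on the cytosolic face of the endoplasmic reticulum, 6 that extend it in the lumen, and 8 subunits of the oligosaccharyltransferase. The set was proposed because Alg1, 1 of the 34, was already known to be higher in the knockout brains, and the other members were chosen by their role in the pathway. The values of Alg1 are therefore given as a description, with no test.

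RNA was sequenced from the whole brains of mice labelled as wildtype (Abcc5+/+) or as knockout (Abcc5-/-), both on the FVB/NJ background, with no treatment in either group. Abcc5 encodes a transporter that exports organic anions, and the study asked what the transporter carries. Each group had 5 libraries, each labelled as a brain of its own, made from polyadenylated RNA. The ages of the mice and the design of the deleted allele are not given in the labels.

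N-linked glycosylation attaches a preassembled, branched oligosaccharide to asparagine residues of proteins entering the secretory pathway. The oligosaccharide is put together sugar by sugar on the membrane lipid dolichol phosphate, starting on the cytosolic face of the endoplasmic reticulum and ending in its lumen after the lipid has flipped, and the oligosaccharyltransferase then moves it to the protein in a single step. In brain, many ion channels, receptors and adhesion molecules carry N-glycans, and inherited defects of these genes, the congenital disorders of glycosylation, often affect the nervous system.

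Library totals ran from 7731294 to 23588335 counts, and wildtype replicate 1 and knockout replicates 2 and 4 were the deepest. The Abcc5 transcript was at 311.1 ± 12.6 CPM (counts scaled to the size of the library) in the wildtype group and 218.8 ± 5.95 CPM in the knockout group (SD, n = 5 each), with a log2 fold change of -0.51 (SE 0.041, edgeR adjusted p = 6.35e-06). Knockout replicate 3 stood apart from the other 9 libraries. Its summed level of 12 markers of cerebellar granule and Purkinje cells was 291.0 CPM, against 1615 to 1949 CPM in the others. No marker was at 0 in all 10 libraries, and markers at 0 in knockout replicate 3 alone were not counted. Its summed levels of neuronal, microglial and endothelial markers were above those of the other 9 libraries, and its levels of astrocyte, oligodendrocyte and choroid plexus markers were below them. Summed microglial markers also differed between the groups, at 224.8 to 242.9 CPM in wildtype against 260.8 to 311.6 CPM in knockout libraries. Without knockout replicate 3 the knockout range was 260.8 to 270.9 CPM. Of the 8 microglial genes, 2 were called higher at an edgeR adjusted p under 0.05, against 0.213% of all tested genes. The part of these cell types in the values below was not tested, and in RNA from whole tissue fewer cells of a type cannot be told apart from less RNA per cell. Members given by library are described with and without knockout replicate 3.

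Of the 33 members other than Alg1, 0 passed the test between the genotypes in edgeR's fit, and with all 10 libraries Stt3b alone of them had an unadjusted p under 0.05. The groups did not overlap for 0 of the 33, against 4.19% of all tested genes. All 34 had enough counts for edgeR's quasi-likelihood test. At an adjusted p under 0.05 over all genes, 0 of the 33 were called higher and 0 lower, with and without knockout replicate 3. Over all genes, 1.18% were called, 0.213% higher and 0.964% lower, and without knockout replicate 3 these shares were 2.31%, 0.631% and 1.68%. An unadjusted p under 0.05 was found for 14.8% of all genes. The number of called genes, 171 of 14526 with all libraries, moved by over 1.5 times when any of wildtype replicates 2 to 5 or knockout replicates 1 to 4 was left out, between 76 genes without wildtype replicate 4 and 341 without knockout replicate 3. Of the 33 members, 0 were called each time.

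The other 33 members lay close to no difference, within bounds that the 5 brains per group can set. Their log2 fold changes, knockout over wildtype, ran from -0.11 to 0.16, and 21 were above 0 and 12 below. Of all tested genes, 51.6% were above 0. The 95% intervals of the 33 reached at the lowest a level 0.820 times that of wildtype, for Alg13. At the highest they reached 1.36 times, for Dpm3. For 33 of the 33, the interval lay within a 1.5-fold difference in either direction. The median log2 fold change of the 33 was 0.026 (0.028 with Alg1), beside 0.0042 over all tested genes. Without knockout replicate 3 the median of the 33 was 0.058. The median size of the difference, whichever its sign, was 0.062 on the log2 scale in the 33 and 0.078 over all tested genes. The median SE of the 33 was 0.075, with Alg2 the most precise of all 34 (SE 0.038) and Dpm3 the least (SE 0.15, with as few as 32 counts in a library).

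**Figure D1:**
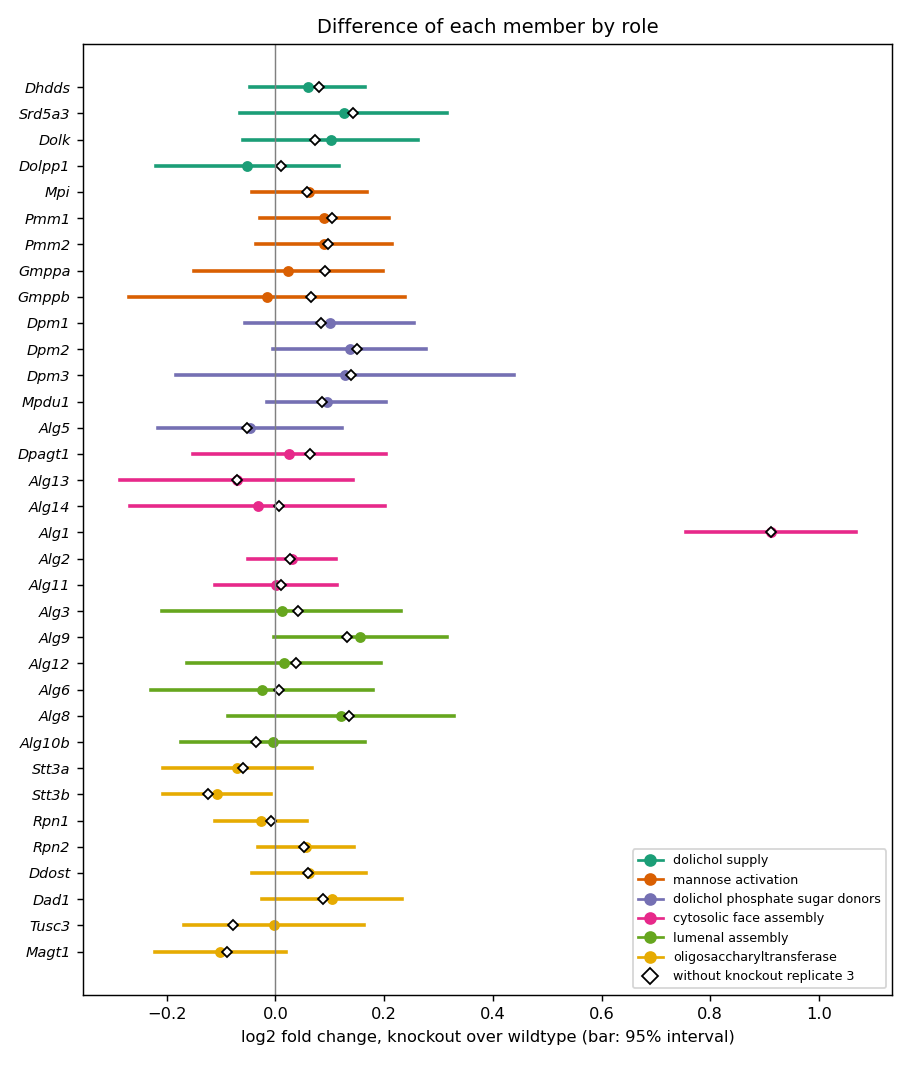
Log2 fold change of each of the 34 genes (horizontal axis, knockout over wildtype, all 10 libraries), grouped by role, with its 95% interval from the edgeR fit; white diamonds give the value without knockout replicate 3. Alg1 lies at 0.91, and the other 33 genes lie between -0.11 and 0.16. The interval drawn for Alg1 is no test, because Alg1 was known to be higher when the set was proposed.

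Alg1 encodes the mannosyltransferase that adds the first mannose to the growing precursor on the cytosolic face. Its transcript (ENSMUSG00000039427, chromosome 16, 5233714 to 5245005 by the numbering of the authors' table, whose build is not given) was at 11.3, 11.2, 9.29, 10.5 and 9.80 CPM in wildtype replicates 1 to 5. In knockout replicates 1 to 5 it was at 18.5, 20.04, 19.9, 21.0 and 18.9 CPM. Every knockout library was above every wildtype library, and knockout replicate 3 lay within the range of the other knockout brains. The means were 10.4 ± 0.872 and 19.7 ± 0.968 CPM (SD, n = 5 each), a 1.89-fold difference. The fitted log2 fold change was 0.91, and it was also 0.91 without knockout replicate 3. Leaving out any other single library gave 0.88 to 0.95. In the authors' deposited table the log2 fold change of Alg1 was 0.91.

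Alg1 lies on the same chromosome as Abcc5, as do 2 other members. By the same numbering, Abcc5 spans 20331376 to 20426467 of chromosome 16. Alg1 lies 15.1 Mb from it, Pmm2 11.7 Mb and Alg3 0.179 Mb. The windows around the annotated starts of these 3 genes are shown because they hold the promoter of the gene that differed and those of the 2 members on its chromosome that did not pass the test. The sequences are those of RefSeq for GRCm38.p6, the C57BL/6J reference and not the FVB/NJ strain of these mice, 300 bases each on the strand of the gene, with the E-box CACGTG in capitals. The Alg1 window is chr16:5233371-5233670 on the plus strand, the Pmm2 window chr16:8637457-8637756 on the plus strand, and the Alg3 window chr16:20610712-20611011 on the minus strand.
Alg1: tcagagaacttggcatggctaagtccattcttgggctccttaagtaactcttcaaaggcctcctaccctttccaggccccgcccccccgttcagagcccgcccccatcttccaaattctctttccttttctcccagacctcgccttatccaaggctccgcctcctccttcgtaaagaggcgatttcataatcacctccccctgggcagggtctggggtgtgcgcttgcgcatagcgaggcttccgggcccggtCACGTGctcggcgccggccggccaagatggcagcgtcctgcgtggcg
Pmm2: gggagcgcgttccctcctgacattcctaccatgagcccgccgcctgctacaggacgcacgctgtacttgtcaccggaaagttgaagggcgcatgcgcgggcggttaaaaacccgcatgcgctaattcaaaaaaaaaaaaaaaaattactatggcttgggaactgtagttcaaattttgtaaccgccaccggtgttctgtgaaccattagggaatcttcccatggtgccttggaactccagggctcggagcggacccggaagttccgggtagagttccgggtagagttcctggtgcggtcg
Alg3: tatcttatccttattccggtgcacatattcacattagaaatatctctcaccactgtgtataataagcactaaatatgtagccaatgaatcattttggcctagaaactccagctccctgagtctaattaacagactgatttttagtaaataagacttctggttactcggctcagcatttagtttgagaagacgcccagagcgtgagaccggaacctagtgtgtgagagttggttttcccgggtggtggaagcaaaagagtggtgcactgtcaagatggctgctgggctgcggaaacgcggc
The Alg1 window held a CACGTG beginning at base 254, and its GC content was 61.0%, against 54.0% for Pmm2 and 44.7% for Alg3. Windows were found for 29 of the 34 members, in 30 sequences. CACGTG, which reads the same on either strand, was in the windows of Alg1, Dhdds, Dolk, Dpm2, Magt1 and Srd5a3, that is 6 of 29 members. It was in 7.15% of all 32851 windows. The first is a count of genes and the second a share of windows, so they are unlike units and were not compared by a test. TGACGTGG, the site of ATF6 and XBP1, factors of the unfolded protein response, was searched on both strands and was in 0 member windows and in 0.676% of all windows. The 5 of these 6 members other than Alg1 did not pass the test. The letters in a window do not show that a factor binds there.

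Pmm2 encodes phosphomannomutase, whose defects cause the most frequent congenital disorder of glycosylation in humans. Its transcript (ENSMUSG00000022711, chromosome 16, 8637767 to 8657624 by the same numbering) was at 24.9, 22.9, 22.1, 21.5 and 24.2 CPM in wildtype replicates 1 to 5 and at 24.1, 24.8, 24.1, 25.2 and 24.9 CPM in the knockout replicates. The knockout values lay within or just above the upper part of the wildtype range. The fitted log2 difference was 0.089 (SE 0.059, 95% interval -0.036 to 0.21), with an edgeR adjusted p of 0.506, and it was 0.096 when knockout replicate 3 was left out. Alg3 encodes the mannosyltransferase that adds the first lumenal mannose, and it is the member closest to Abcc5. Its transcript (ENSMUSG00000033809, chromosome 16, 20605524 to 20610841) was at 9.87, 8.22, 7.35, 7.76 and 9.68 CPM in wildtype and at 9.03, 9.70, 7.65, 8.47 and 8.42 CPM in knockout replicates 1 to 5. The knockout values lay within the wildtype range. Its log2 fold change was 0.012 (SE 0.10, 95% interval -0.21 to 0.23, adjusted p = 0.977), and 0.042 without knockout replicate 3.

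**Figure D2:**
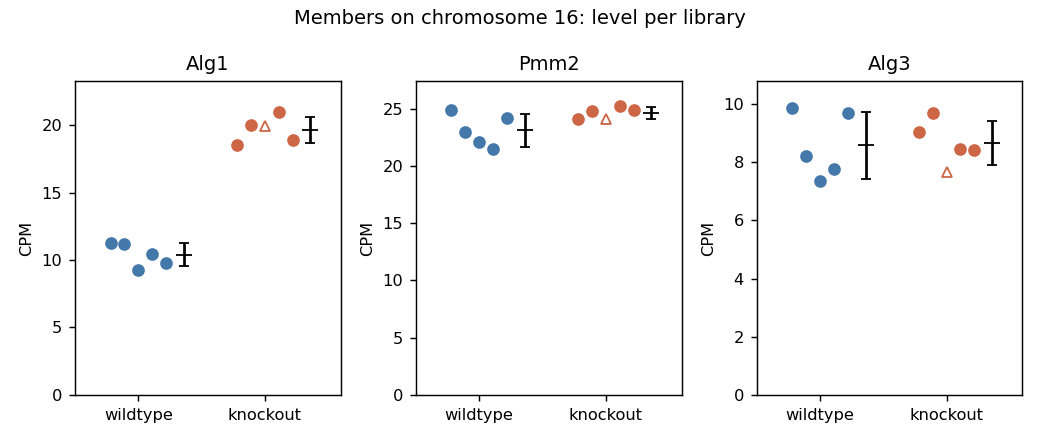
Level in CPM (vertical axis, from 0) of the 3 members on chromosome 16 in each library, by genotype, with the mean ± SD of 5 libraries in black and knockout replicate 3 as an open triangle. The Alg1 libraries form separate groups at 9.29 to 11.3 and 18.5 to 21.0 CPM, while the groups overlap for Pmm2 and Alg3.

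The genes beside Alg1 were compared over the same libraries. Within 150 kb of Alg1 the table lists 7 other genes, of which 6 were tested and 0 were called at an adjusted p under 0.05 by edgeR, with log2 fold changes from -0.26 to 0.13. Ubn1, which encodes a nuclear protein of histone deposition, had the lowest adjusted p of these, 0.0564. It was at 81.2 ± 3.54 CPM in wildtype against 71.3 ± 2.11 CPM in knockout brains, a difference in the opposite direction to that of Alg1. Its groups did not overlap, at 76.4 to 85.4 CPM in wildtype and 68.8 to 74.5 CPM in knockout libraries. Fam86 shares 761 bases of its span with the end of Alg1, on the other strand in the GENCODE annotation of GRCm38. The library kit does not mark strand, and the counting of overlapping genes is not given in the sources used here, so reads of the shared stretch cannot be told apart by strand. Fam86 was at 4.59 ± 0.537 CPM in wildtype against 4.05 ± 0.763 CPM in knockout brains (log2 fold change -0.26, adjusted p = 0.420). Around Pmm2 and Alg3, 0 of 5 and 0 of 14 other tested genes within 150 kb were called, with lowest adjusted p values of 0.380 and 0.0899. The latter was that of Camk2n2, whose groups also did not overlap. It was at 73.7 to 79.5 CPM in wildtype and 79.7 to 94.8 CPM in knockout libraries. The groups did not overlap for 4.19% of all tested genes. Values of the neighbours without knockout replicate 3 are not given here.

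In the order of the pathway, the supply of dolichol comes first, and 0 of its 4 genes passed the test. Dhdds, a subunit of the enzyme that builds the polyprenol chain, was at 60.4 ± 2.07 CPM in wildtype against 62.7 ± 3.74 CPM in knockout brains (log2 fold change 0.059, adjusted p = 0.617). Srd5a3, which acts in the conversion of polyprenol to dolichol, had a log2 fold change of 0.13 (adjusted p = 0.542). Dolk, the kinase that makes dolichol phosphate, had a log2 fold change of 0.10 (adjusted p = 0.565). The whole of Dolk, 2126 bases, lies within the span of Phyhd1, whose edgeR adjusted p was 0.563. Dolpp1, a phosphatase that recycles the lipid carrier, was the single gene of this group below 0, at -0.052 (adjusted p = 0.817), and at 0.011 without knockout replicate 3, where it stood at 14.9 CPM against 18.6 to 20.9 CPM in the other 9 libraries. It shares 59 bases with Crat, which was called lower (log2 fold change -0.32, adjusted p = 0.0160).

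The 5 genes that turn sugar phosphates into GDP-mannose did not pass the test either, and 4 of them had values above 0. Mpi, which makes mannose phosphate from fructose phosphate, was at 46.9 ± 2.64 CPM in wildtype against 49.1 ± 1.33 CPM in knockout brains (log2 fold change 0.062, adjusted p = 0.596). Pmm1, the paralog of Pmm2, was at 85.9 ± 5.90 and 91.4 ± 5.45 CPM (log2 fold change 0.090, adjusted p = 0.478). Gmppb makes GDP-mannose, and Gmppa is its regulatory partner. In wildtype brains Gmppb was at 8.50 ± 0.556 CPM and Gmppa at 34.9 ± 1.87 CPM. Both were lowest of all libraries in knockout replicate 3, at 5.54 CPM for Gmppb, against 7.85 to 9.75 CPM elsewhere, and at 27.6 CPM for Gmppa, against 33.02 to 39.6 CPM elsewhere. Their log2 fold changes were -0.016 (adjusted p = 0.974) and 0.023 (adjusted p = 0.937), and 0.066 and 0.091 without that library. Gmppb shares 1268 bases with Rnf123, whose edgeR adjusted p was 0.977.

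Dolichol phosphate mannose and dolichol phosphate glucose are the sugar donors used in the lumen. Dpm2, which stabilises the mannose donor synthase, had the largest difference of these 5 genes. Its transcript (ENSMUSG00000026810, chromosome 2, 32426378 to 32429099 by the same numbering) was at 28.7, 27.6, 25.7, 28.1 and 28.9 CPM in wildtype replicates 1 to 5 and at 26.7, 31.2, 29.7, 33.9 and 30.3 CPM in knockout replicates 1 to 5. Knockout replicate 1 lay within the wildtype range and the other 4 above it. The log2 fold change was 0.14 (SE 0.066, 95% interval -0.0037 to 0.28, adjusted p = 0.353). Leaving out knockout replicate 3 gave 0.15, with an interval from 0.0093 to 0.29 that lay above 0 and an adjusted p of 0.247. Dpm1, the catalytic subunit of the synthase, had a log2 fold change of 0.10 (adjusted p = 0.556), and Dpm3, its membrane anchor, of 0.13 (adjusted p = 0.737). Mpdu1, needed for the use of these donors, was at 33.8 ± 0.575 CPM in wildtype against 36.1 ± 1.82 CPM in knockout brains (log2 fold change 0.095, adjusted p = 0.415). Alg5, the synthase of the glucose donor, had a log2 fold change of -0.046 (adjusted p = 0.844).

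Alg1 works among 6 genes on the cytosolic face, and the other 5 had log2 fold changes from -0.071 to 0.030, with a median of 0.0011. Dpagt1 starts the precursor by placing the first N-acetylglucosamine phosphate on dolichol phosphate. It was at 14.1 ± 1.17 CPM in wildtype against 14.2 ± 1.29 CPM in knockout brains (log2 fold change 0.026, adjusted p = 0.929). Alg13 and Alg14 together form the enzyme of the next step. Alg13 (ENSMUSG00000041718, chromosome X, 140752355 to 140808993) was at 10.2, 10.8, 12.6, 10.7 and 13.0 CPM in wildtype and at 12.5, 9.16, 10.7, 10.8 and 11.7 CPM in knockout replicates 1 to 5, with groups that covered much the same range. Its log2 fold change was -0.071 (SE 0.10, 95% interval -0.29 to 0.14, adjusted p = 0.797), or -0.070 when knockout replicate 3 was left out. Alg14 was at 6.68 ± 0.962 and 6.47 ± 0.578 CPM (log2 fold change -0.033, adjusted p = 0.949). Alg2, which adds the mannoses after that of Alg1, was at 145.7 ± 4.22 and 148.8 ± 1.91 CPM (log2 fold change 0.030, adjusted p = 0.764). Alg11, which adds the last mannoses before the flip, was at 39.5 ± 1.47 and 39.4 ± 2.15 CPM (log2 fold change 0.0011, adjusted p = 0.998).

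Among the 6 lumenal transferases, 0 were called. Alg9, a mannosyltransferase, had the largest log2 fold change of the 33. Its transcript (ENSMUSG00000032059, chromosome 9, 50583124 to 50651647) was at 16.5, 19.1, 19.2, 17.5 and 15.4 CPM in wildtype and at 18.8, 19.6, 21.4, 18.2 and 20.1 CPM in knockout replicates 1 to 5. The groups overlapped between 18.2 and 19.2 CPM, and knockout replicate 3 was the highest library. The log2 fold change was 0.16 (SE 0.075, 95% interval -0.0033 to 0.32, adjusted p = 0.349). Leaving out that library gave 0.13 (adjusted p = 0.376). It shares 502 bases with 1110032A03Rik. Alg12, the other lumenal mannosyltransferase beside Alg3 and Alg9, was at 9.93 ± 0.610 and 9.99 ± 0.859 CPM (log2 fold change 0.016, adjusted p = 0.962). Alg6, Alg8 and Alg10b, which add the glucoses in that order, differed by -0.024, 0.12 and -0.0049 on the log2 scale, and their adjusted p values were 0.946, 0.605 and 0.990.

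The oligosaccharyltransferase occurs as complexes built around either Stt3a or Stt3b, the catalytic subunits. Complexes with Stt3a act on proteins as they enter the endoplasmic reticulum, and those with Stt3b also act afterwards, together with the oxidoreductases Tusc3 or Magt1. Of these 8 genes, 5 were below 0 and 3 above, with 0 called. Stt3b (ENSMUSG00000032437, chromosome 9, 115151725 to 115219539) was at 99.1, 104.5, 108.1, 106.3 and 108.2 CPM in wildtype replicates 1 to 5. In knockout replicates 1 to 5 it was at 101.1, 98.7, 102.8, 90.1 and 95.8 CPM. The lowest wildtype library, replicate 1, lay below 2 of the knockout libraries, and the other 4 wildtype libraries lay above all of them. The log2 fold change was -0.11 (SE 0.047, 95% interval -0.21 to -0.0090), with an edgeR p of 0.0345 before and 0.295 after adjustment. Without knockout replicate 3 it was -0.12 (95% interval -0.22 to -0.025, adjusted p = 0.177). Stt3a (ENSMUSG00000032116, chromosome 9, 36538860 to 36575264) was at 42.3, 40.7, 48.9, 40.8 and 46.3 CPM in wildtype and at 46.7, 40.1, 40.1, 40.5 and 41.1 CPM in knockout replicates 1 to 5. Its knockout values lay close together apart from replicate 1. For Stt3a this gave a log2 fold change of -0.070 (SE 0.064, 95% interval -0.21 to 0.067, adjusted p = 0.657), or -0.059 when knockout replicate 3 was left out.

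Magt1 (ENSMUSG00000031232, chromosome X, 103163423 to 103207245) was at 33.8, 34.5, 33.2, 38.3 and 36.6 CPM in wildtype and at 34.9, 33.7, 31.7, 32.0 and 32.2 CPM in knockout replicates 1 to 5. Knockout replicates 3, 4 and 5 were below all wildtype libraries, and the other 2 were within their range. For Magt1 this gave a log2 fold change of -0.10 (SE 0.056, 95% interval -0.22 to 0.019, adjusted p = 0.427), or -0.089 when knockout replicate 3 was left out. Tusc3, the form typical of brain (ENSMUSG00000039530, chromosome 8, 40068899 to 40250466), was at 111.8, 124.2, 129.5, 122.2 and 131.7 CPM in wildtype and at 117.0, 120.0, 150.8, 105.5 and 126.5 CPM in knockout replicates 1 to 5. Knockout replicate 3 was the highest library and knockout replicate 4 the lowest. The log2 fold change was -0.0033 (95% interval -0.17 to 0.16, adjusted p = 0.994), and -0.078 (95% interval -0.20 to 0.042, adjusted p = 0.498) without knockout replicate 3. The ratio of Stt3b to Stt3a, per kb of annotated exons, was 5.11 ± 0.357 in wildtype and 4.98 ± 0.346 in knockout brains. The ratio of Tusc3 to Magt1 was 4.79 ± 0.383 and 5.15 ± 0.818, and 4.81 ± 0.385 in the 4 knockout brains other than replicate 3, in which it was 6.48. The knockout ratios overlapped the wildtype ratios in either case. The size of these ratios depends on the lengths used, which merge the exons of all annotated transcripts. They were 4221 bases for Stt3b and 8948 bases for Stt3a. Before division by length, the wildtype means were 105.2 CPM for Stt3b and 43.8 CPM for Stt3a.

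**Figure D3:**
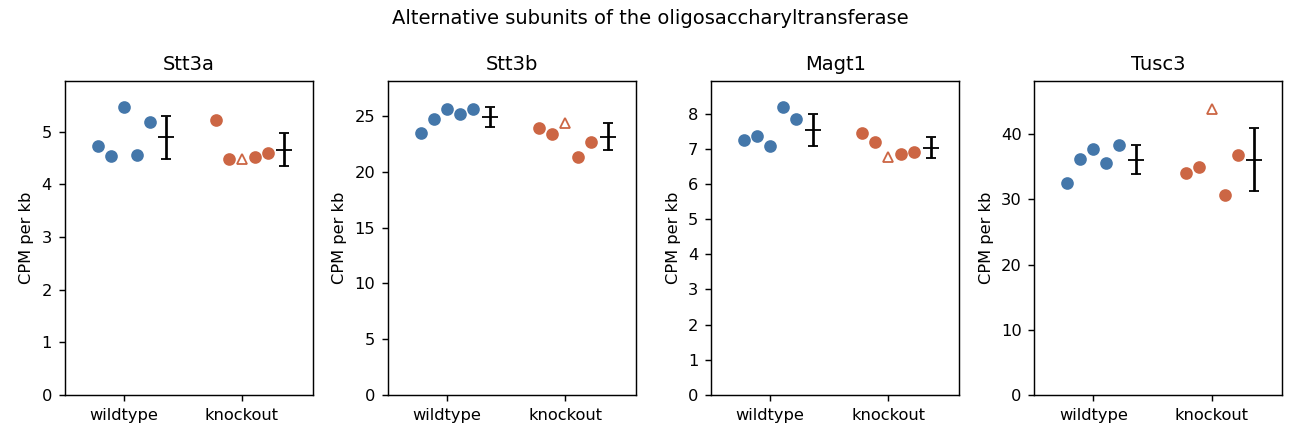
Level in CPM per kb of annotated exons (vertical axis, from 0, with its own scale in each panel) of the alternative subunits of the oligosaccharyltransferase in each library, with the mean ± SD of 5 libraries in black and knockout replicate 3 as an open triangle. The groups overlap for all 4 genes, and Tusc3 is highest in knockout replicate 3.

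The subunits shared by both kinds of complex had small differences. Rpn1 was at 113.6 ± 2.21 CPM in wildtype against 111.5 ± 3.75 CPM in knockout brains, and Rpn2 at 118.6 ± 4.27 and 123.4 ± 3.49 CPM, with log2 fold changes of -0.026 (adjusted p = 0.815) and 0.056 (adjusted p = 0.559). Ddost, which helps to hold the complex together, was at 64.6 ± 4.12 and 67.6 ± 1.53 CPM (log2 fold change 0.062, adjusted p = 0.594). Dad1, a small membrane subunit, was at 39.3 ± 2.44 and 42.3 ± 2.87 CPM (log2 fold change 0.10, adjusted p = 0.445). For Rpn1 the 95% interval of the log2 fold change was -0.11 to 0.058, and for Rpn2 it was -0.032 to 0.14.

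Levels were also compared between genes, as CPM per kb of exons annotated in GENCODE. This length merges the exons of all annotated transcripts and can exceed that of the transcripts expressed. The order of the genes therefore depends on it. In wildtype brains they ran from 1.67 CPM per kb for Alg13 to 42.2 CPM per kb for Alg2. Alg2 was followed by Tusc3 at 36.1, Ddost at 30.5, Pmm1 at 30.0, Rpn2 at 26.8, Rpn1 at 25.2 and Stt3b at 24.9 CPM per kb. Of these neighbours, Alg2 lay above Tusc3 in every wildtype library, and the ranges of Ddost and Pmm1 overlapped. Most transferases were far lower. Alg1 ranked 26 of 34 in wildtype, at 3.88 CPM per kb, between Dpagt1 at 4.12 and Alg5 at 3.82, with overlapping ranges. In knockout brains Alg1 was at 7.34 CPM per kb. Its level in every brain was thus below that of Alg2, the enzyme of the step after it.

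**Figure D4:**
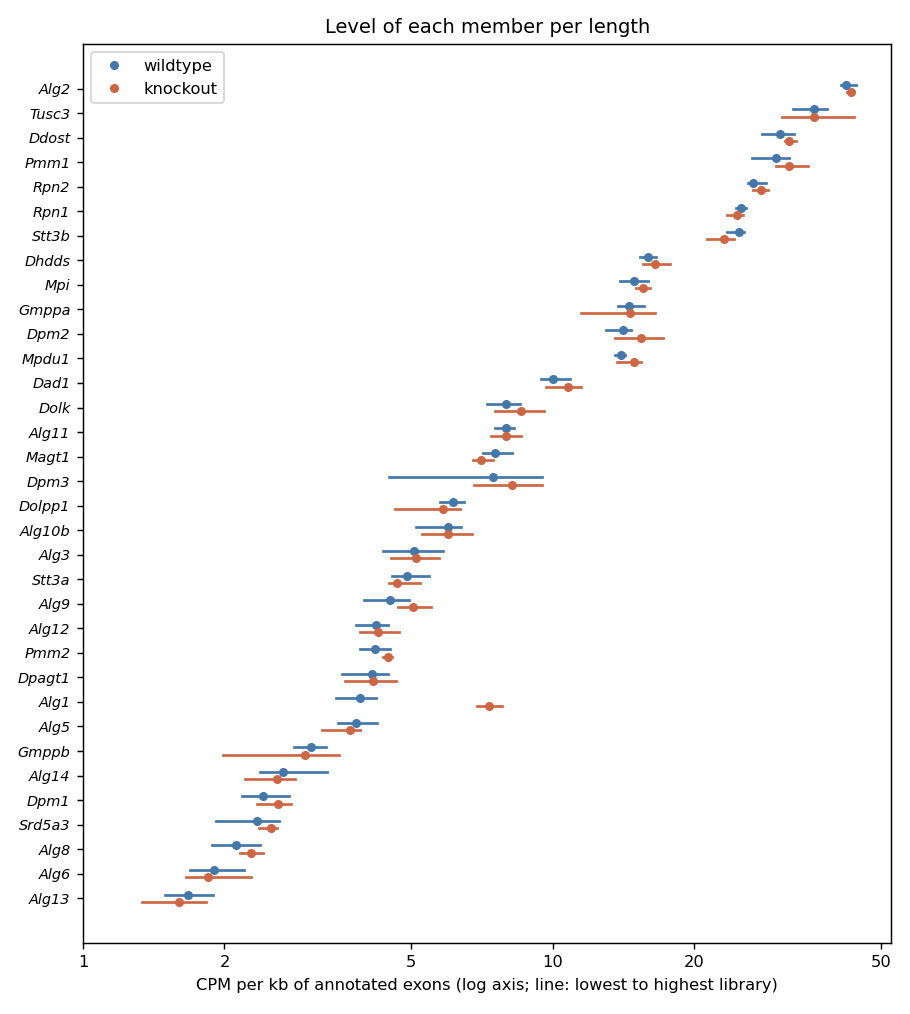
Level of each of the 34 genes in CPM per kb of annotated exons (horizontal log axis), with points for the mean of 5 wildtype (blue) and 5 knockout (orange) libraries and lines from the lowest to the highest library. Alg2 is at the top with 42.2 and Alg13 at the bottom with 1.67 in wildtype, and the lines of the 2 groups are apart for Alg1 alone.

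Looked at by library, the spread over members was widest in knockout replicate 3. The SD of the log2 deviations of the 33 members from the wildtype mean was 0.199 in that library and 0.072 to 0.153 in the other 9. It was the lowest library for 7 members (Dolpp1, Gmppa, Gmppb, Alg14, Alg6, Rpn1 and Magt1) and the highest for 5 (Dolk, Mpdu1, Alg9, Dad1 and Tusc3). Gmppb was 36.4% below the mean of the other 9 libraries there, Dolpp1 25.0% below, Gmppa 23.0% below, Tusc3 24.7% above and Dolk 18.3% above. Knockout replicate 3 also had the fewest counts of the 10 libraries, 7731294. Deviations from the wildtype mean also narrow the spread of the wildtype libraries. The part of the lower cerebellar transcripts and of depth in these values was not tested. Within groups the members varied little, with a median coefficient of variation of 6.46% in wildtype and 6.57% in knockout libraries. The median deviation over the 34 members was -0.0057 to 0.030 in the wildtype and 0.034 to 0.083 in the knockout libraries. A value of 0 is the wildtype mean, so the wildtype libraries centre near 0 by construction. Alg1 is among the 34, and the same median over all genes was not computed. With the scaling changed to the upper quartile and nothing else, the median log2 fold change of the 34 went from 0.028 to 0.045.

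**Figure D5:**
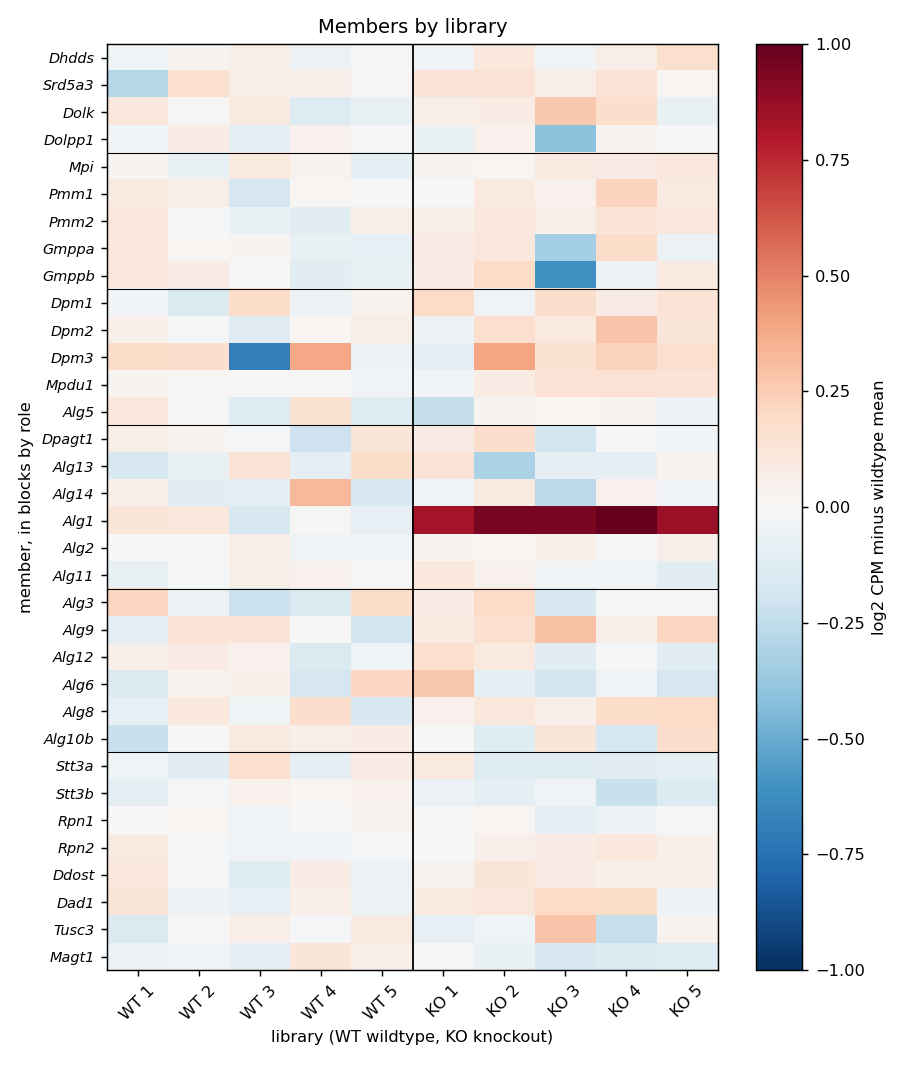
Log2 CPM minus the wildtype mean (colour, from -1 to 1) for each of the 34 genes (vertical axis, in blocks by role) in each of the 10 libraries (horizontal axis). Alg1 is red in all 5 knockout libraries, and Gmppb, Dolpp1 and Gmppa are blue in knockout replicate 3.

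The wider pathway was read from 71 further genes in 5 lists, all of which were tested. At an adjusted p under 0.05, 0 were called by edgeR, against 1.18% of all genes. At an unadjusted p under 0.05, 3 were higher and 7 lower, against 14.8% of all genes in either direction. Their median log2 fold change was 0.0048, with 36 above 0 and 35 below. A list of 16 genes covered glucose trimming, the calnexin cycle, mannose trimming, removal of N-glycans and lectin transport of glycoproteins. Of the 16, 10 were below 0 and the median was -0.060. Of these, Edem3, which helps to mark misfolded glycoproteins for degradation, was at -0.19 (adjusted p = 0.0993). The oxidoreductase Pdia3 was at -0.18 (adjusted p = 0.115) and the chaperone Calr at -0.19 (adjusted p = 0.164). The genes named from the 71 are among the 10 with an unadjusted p under 0.05, a choice made after their values were seen. The next list held 9 genes of the synthesis, salvage and breakdown of hexosamines and UDP-N-acetylglucosamine, with a median of 0.087. Among them Gfpt1, the rate-limiting enzyme of synthesis, was at -0.14 (adjusted p = 0.133). The 25 genes of Golgi processing had a median of -0.013. Among them Mgat4b, which starts a branch of complex N-glycans, was at 0.15 (adjusted p = 0.212), and St8sia4, a polysialyltransferase, was at -0.22 (adjusted p = 0.254). The 6 further subunits and flippase candidates also had a median of -0.013.

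The last list held 15 enzymes of other routes that use dolichol phosphate mannose, with a median log2 fold change of 0.068. Pigb, a mannosyltransferase of glycosylphosphatidylinositol anchors, had the largest difference of the 71 genes, at 5.77 ± 0.742 CPM in wildtype against 7.14 ± 0.944 CPM in knockout brains (log2 fold change 0.35, 95% interval 0.096 to 0.60, adjusted p = 0.180). Tmtc3, which attaches mannose to cadherins, was at -0.22 (adjusted p = 0.170). Dpy19l1, which belongs to a family that attaches mannose to tryptophan of secreted proteins, had the lowest adjusted p of the 71 genes. Its levels were 143.7, 155.2, 157.3, 151.4 and 148.3 CPM in wildtype replicates 1 to 5 and 132.4, 138.6, 135.9, 128.2 and 117.6 CPM in knockout replicates 1 to 5. Every knockout library was below every wildtype library, which held for 2 of the 71 genes, the other being Gfpt1, and for 4.19% of all tested genes in either direction. The log2 fold change was -0.21 (SE 0.049), with an edgeR adjusted p of 0.0522. Without knockout replicate 3 it was -0.22, with an edgeR adjusted p of 0.0229. Dpy19l1 alone of the 71 was then called, as lower. Without that library 2.31% of all genes were called, 1.68% of them all as lower, so 1 call among 71 is not above that share.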

How the data were processed

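The authors deposited whole-number read counts per Ensembl gene for 10 libraries, with TopHat2 2.0.6, HTSeq, edgeR and limma named in the submitters' processing notes. What each tool did, the genome build and the annotation are not given in the sources used here. The deposited log2 fold changes, damaged in 629 cells, and the deposited adjusted p-values, damaged in 8, were used only where intact. A further 10 columns of values per library were damaged and not used here.

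The counts were fitted with edgeR 4.0.16 (R 4.3.3). The function filterByExpr (minimum count 10, minimum total 15) kept 14526 genes, libraries were scaled by TMM, and a quasi-likelihood test with genotype as its only term was adjusted by the Benjamini-Hochberg method over all of them. Levels are CPM on TMM-scaled library sizes. SE and 95% intervals of log2 fold changes were derived from the F statistic. Replicates differed by more than counting error (chi-square per degree of freedom at least 1.29), and no library was a copy of another. CPM per kb used the merged length of all annotated exons of the gene in GENCODE for GRCm38, not the length of the transcripts expressed. Libraries of 7731294 to 23588335 counts limit genes with few counts most.

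Alternatives were scaling by the size factors of DESeq2 or by the upper quartile, testing genes without a low-count filter or with 1 CPM or more in 5 libraries, a replicate block, each library left out, the 7 libraries of lower depth, limma-voom (limma 3.58.1) and DESeq2 1.42.0. The members and the gene lists were chosen with earlier results of these data known. Values in every library are given for members called, for the 3 largest differences in each direction, for the members on chromosome 16 and for the pairs Stt3a and Stt3b, Tusc3 and Magt1.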

Additional observations from a re-analysis of the deposited data

Results flagged for a closer look

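In 3 of the 68 groups of 5 libraries, 1 library lay far from the other 4 by Dixon's test at its 95% critical value for 5 samples. Chance gives this in about 1 in 20 groups. Dolpp1 was at 14.9 CPM in knockout replicate 3, with the next knockout library at 19.0 CPM. Stt3a was at 46.7 CPM in knockout replicate 1, with the next knockout library at 41.1 CPM. Rpn2 was at 126.2 CPM in wildtype replicate 1, with the next wildtype library at 117.4 CPM.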

How the results depend on the processing

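Over 18 alternative settings, 0 of the 33 members other than Alg1 were called, with a lowest adjusted p of 0.156, and the log2 fold change of Alg1, given as a description, lay between 0.88 and 0.95. The number of genes called among all tested, 171 (31 higher and 140 lower), was 261 (49 and 212) with DESeq2 and 31 (5 and 26) in the 7 libraries of lower depth. With 1 library left out it ran from 76 to 341, with 8 to 93 higher and 67 to 248 lower. With the replicate number as a block it was 90 (8 and 82), and same-numbered libraries did not deviate together (correlations of -0.14 to 0.089, with number 3 alone closest to its own), so the numbers were not taken to pair the brains. The median log2 fold change of all 34 members, Alg1 among them, was 0.022 to 0.059 with 1 library left out. The sign of the log2 fold change was the same in every setting for 21 members and changed for 13. The largest of these 13 was Srd5a3, at 0.13 with all libraries. Under upper-quartile scaling Gmppb was at 0.0017, Alg10b at 0.012 and Tusc3 at 0.014, and with no low-count filter Alg11 was at -0.00089. In the 7 libraries of lower depth Srd5a3 was at -0.0010, Gmppa at -0.062, Dpagt1 at -0.017, Alg11 at -0.025, Alg10b at 0.045 and Tusc3 at 0.050. With 1 library left out, Dolpp1 ran from -0.086 to 0.011, Gmppa from -0.028 to 0.091, Gmppb from -0.097 to 0.066, Dpagt1 from -0.028 to 0.063, Alg13 from -0.12 to 0.0032, Alg14 from -0.071 to 0.054, Alg11 from -0.022 to 0.019, Alg3 from -0.045 to 0.088, Alg12 from -0.020 to 0.037, Alg6 from -0.092 to 0.027, Alg10b from -0.067 to 0.043 and Tusc3 from -0.078 to 0.053. The cause of these changes was not tested. Depth limits the genes with few counts most, such as Dpm3 with 32 in a library.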
